A study of Mus musculus with 12 samples.

Results

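The comparison of Egfr knockout with Smad4 knockout mouse pancreatic tumour cells sets 3 EgfrKO libraries against 3 Smad4KO libraries, which are 6 of the 12 RNA sequencing libraries of the study. Its members are the genes with a TPM value of at least 1 in at least 3 of the 12 libraries, 13662 of the 24493 genes listed. TPM, the unit of expression used throughout, gives a gene's share of the transcripts of its library, corrected for transcript length, on a scale with the same total in each library.

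All libraries came from cells named 6649c2, of strain C57BL/6, which were implanted under the skin, grew as tumours and were sorted from them before total RNA was extracted. By label the EgfrKO cells carried a knockout of Egfr and the Smad4KO cells a knockout of Smad4, and no other edit is named for either. Neither group is a control of the other. The study also held WT and Klf5KO libraries of the same line, 3 each. WT values are given only beside those of the knockouts, Klf5KO values are not given, and neither enters a fold change. The gate of the sort, whether a knockout line was a clone or a pool, how the genes were edited, and whether replicates came from separate tumours or animals are points that the sources at hand do not give. The p-values therefore measure the spread between these libraries, which may be technical.

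EGFR is a receptor tyrosine kinase of the ERBB family. It binds ligands such as TGF-alpha, amphiregulin and HB-EGF, pairs with itself or with ERBB2 or ERBB3, and signals through the ERK kinase cascade, which promotes growth in epithelial cells. SMAD4 is the common partner of the receptor-activated SMADs, carries TGF-beta and BMP signals to the nucleus, and is one of the tumour suppressor genes most often lost in human pancreatic ductal cancer. In epithelial cells, TGF-beta signalling is known to lower junction genes and to raise mesenchymal and matrix genes.

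Of the 6 libraries, each had between 12712 and 12966 genes at 1 TPM or more, and ribosomal protein genes took 17.8 to 19.6% of the TPM. The entry Mir6236 alone took 3.87, 5.47 and 8.62% in EgfrKO libraries 1 to 3 and 6.46, 7.74 and 7.8% in Smad4KO libraries 1 to 3. Across genes, libraries of the same genotype correlated at 0.982 to 0.988 on the log2(TPM + 1) scale, and libraries of different genotypes at 0.957 to 0.966, a description over genes that are not independent replicates. Smad4KO replicate 2 stood apart: its summed TPM of 15 macrophage markers was 369, against 1820 in each of the other Smad4KO libraries, and its 9 general leukocyte markers summed to 81.3 TPM, against 193 and 194. Without it the log2 fold changes of EgfrKO over Smad4KO for Tgfbi, Hmox1 and Itgax, genes that macrophages also express, were 1.58, 0.75 and 1.33, in place of 1.84, 0.87 and 1.35 with it (adjusted p 1.23e-05, 0.0103 and 0.0013 without it, limma). The sorted cells carried keratins from a list of 10 ductal epithelial markers. Krt8 had 2761 to 2930 TPM in EgfrKO and 3027 to 3426 TPM in Smad4KO cells. Krt19 had 1789 to 1894 TPM in EgfrKO and 1609 to 1720 TPM in Smad4KO cells. Epcam, from the same list, had only 1.21 to 1.36 TPM in EgfrKO against 36.8 to 41.0 TPM in Smad4KO cells. Cldn4, from the same list of 10 ductal markers, stayed at or below 0.184 TPM in all 6 libraries, and the acinar and islet markers Cpa1, Amy2a5, Ins1, Ins2, Gcg and Sst were listed at 0.

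Each targeted transcript was lower in its own knockout, and neither was absent. Egfr, at 11:16752203-16913907 of GRCm38.p6, had 5.16, 3.78 and 3.94 TPM in EgfrKO libraries 1 to 3, against 7.48, 10.03 and 6.35 TPM in Smad4KO libraries 1 to 3. All EgfrKO values lay below all Smad4KO values, and the WT mean was 13.1 ± 0.850 TPM (SD, n = 3). The log2 fold change of EgfrKO over Smad4KO was -0.75 ± 0.17 (SE), with an adjusted p of 0.00544 from limma. Smad4, on chromosome 18, had 65.8, 64.9 and 61.3 TPM in EgfrKO cells, against 29.8, 33.4 and 28.9 TPM in Smad4KO cells. The groups did not overlap, and the mean was 2.08 times as high in EgfrKO as in Smad4KO cells, a log2 fold change of 1.04 ± 0.07 (adjusted p 8.27e-07, limma). The 2-sided exact permutation test gave p = 0.1 for each gene, the smallest that 3 libraries against 3 allow. A TPM summed over a gene can still count transcripts that carry an edit, so these levels do not measure the protein. Klf5, targeted elsewhere in the study, encodes an epithelial transcription factor and had 82.5, 89.0 and 83.2 TPM in EgfrKO against 118, 137 and 119 TPM in Smad4KO cells (log2 fold change -0.55 ± 0.10, adjusted p 0.00125, limma).

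**Figure D1:**
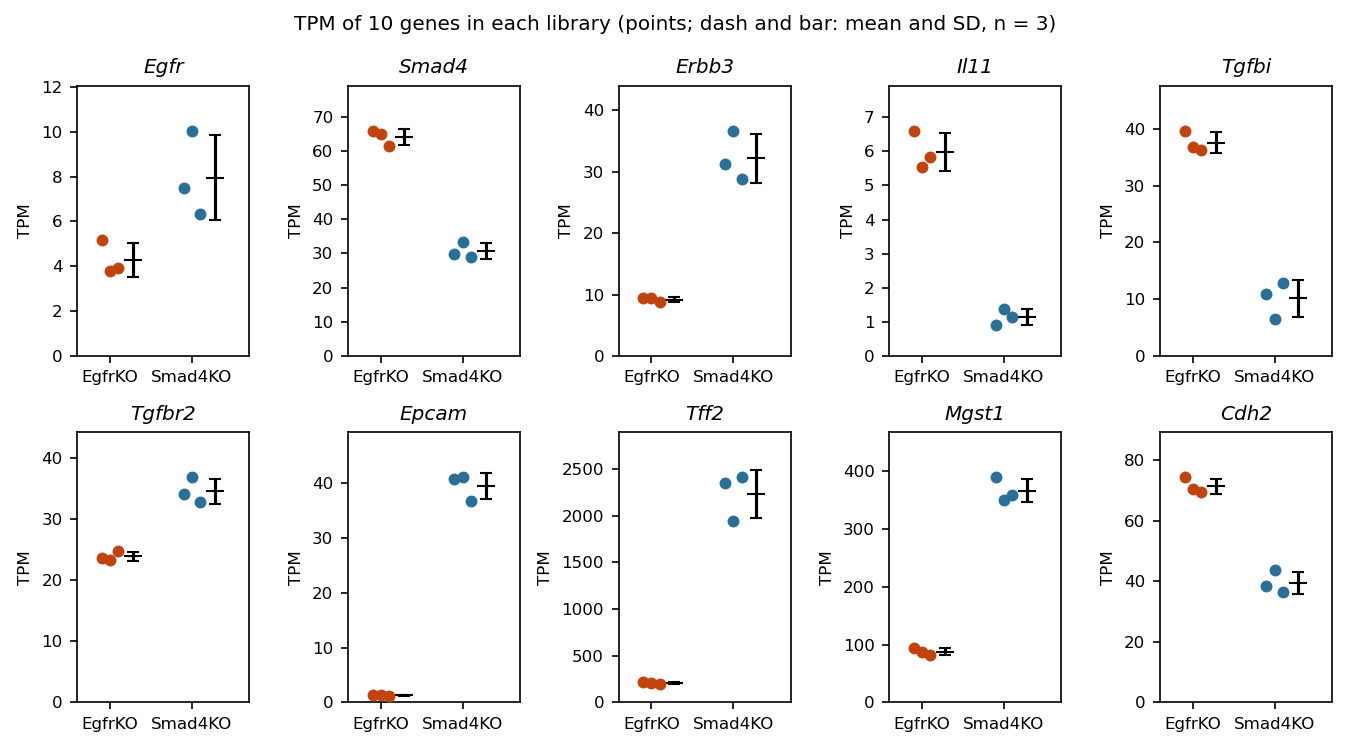
TPM of 10 genes in each EgfrKO (left) and Smad4KO (right) library, with 1 panel for each gene and its own linear axis from 0. Points are libraries, and bars give the mean and SD of 3. Egfr, Erbb3, Tgfbr2, Epcam, Tff2 and Mgst1 lie lower in EgfrKO cells, and Smad4, Il11, Tgfbi and Cdh2 lie higher, with no overlap in any panel.

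The knockouts differed in 4531 of the 13662 genes at an adjusted p under 0.05, which is 33.2% of those tested. Of these, 2554 (18.7%) were higher and 1977 (14.5%) lower in EgfrKO than in Smad4KO cells. These shares are the background for the list counts below. The higher genes made up 56.4% of the calls, a share that was 45.8% when libraries were scaled by the median of ratios (2255 higher, 2672 lower). It was 50.2% without EgfrKO replicate 1 and 61.9% without EgfrKO replicate 3. The balance of directions therefore rests on the scaling and on single libraries. Most differences were small: the median log2 fold change was 0.42 among the higher and -0.47 among the lower genes. Only 289 higher and 349 lower genes passed a doubling on the log2(TPM + 1) scale. A log2 fold change past 2 in size was found for 16 higher and 74 lower genes. Without any test, the groups did not overlap in 6548 genes (47.9%), with EgfrKO above in 3707 (27.1%) and below in 2841 (20.8%).

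Among genes with a mean of at least 10 TPM in the higher group, a regular symbol and groups that did not overlap, ranked by log2 fold change of TPM + 1, the decreases in EgfrKO relative to Smad4KO cells were led by Sftpd, Pigr and Gpx2. Sftpd encodes surfactant protein D, a secreted lectin that binds microbes. It had 1.43, 0.594 and 1.10 TPM in EgfrKO against 107, 104 and 97.9 TPM in Smad4KO cells, and WT cells averaged 2.35 ± 1.09 TPM (SD, n = 3). It was near 1 TPM in EgfrKO and near 100 TPM in Smad4KO cells, a 98.7-fold difference of means (log2 fold change -5.69 ± 0.22, adjusted p 2.55e-08, limma). Pigr, the receptor that carries IgA across epithelia, had 0.338, 0.630 and 0.625 TPM in EgfrKO against 52.8, 54.4 and 53.1 TPM in Smad4KO cells (-5.16 ± 0.13, adjusted p 1.73e-09, limma), and 0.383 ± 0.217 TPM in WT. Gpx2, a glutathione peroxidase of gut epithelium, had 3.14, 2.81 and 3.21 TPM in EgfrKO against 115, 110 and 114 TPM in Smad4KO cells (-4.82 ± 0.16, adjusted p 7.53e-09). For these 3 genes the EgfrKO and WT means both stayed under 6 TPM, while every Smad4KO library was above 50 TPM. Dmbt1, a mucosal scavenger receptor, had 47.7, 45.1 and 42.5 TPM in EgfrKO against 592, 688 and 550 TPM in Smad4KO cells. The other 8 of the 12 largest decreases were Epcam, Dio3os, Prap1, Spink4, Slc44a4, Oit1, Ckmt1 and Smim22, with log2 fold changes between -4.13 and -3.53.

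The largest increase was in Rhox5, a homeobox gene of the X chromosome known from the testis and from tumours. It had 125, 112 and 108 TPM in EgfrKO against 7.31, 4.04 and 6.23 TPM in Smad4KO cells, and 36.7 ± 12 TPM in WT. The EgfrKO mean was 19.6 times the Smad4KO mean (log2 fold change 4.11 ± 0.21, adjusted p 1.46e-07, limma), and WT lay between them. Cym, which encodes the gastric protease chymosin, averaged 232 ± 6.61 TPM in EgfrKO and 31.3 ± 5.49 TPM in Smad4KO cells (SD, n = 3 each; adjusted p 3.23e-06). Enpp2 encodes autotaxin, the enzyme that makes lysophosphatidic acid, and averaged 55.6 ± 2.64 TPM in EgfrKO and 9.74 ± 0.906 TPM in Smad4KO cells (SD, n = 3 each; adjusted p 1.37e-07). The 12 largest increases also held Lect2, Tmem252, Podnl1, Ifitm1, Add2 and Gzme, with log2 fold changes from 1.94 to 2.82. They held 3 genes that macrophages are known to express, Mmp12, Trem2 and Ccl24. Trem2 had 17.1, 19.6 and 23.5 TPM in EgfrKO against 6.67, 0.856 and 5.52 TPM in Smad4KO cells, with Smad4KO replicate 2 the lowest. Without that library, its log2 fold change was 1.56 in place of 2.20 (adjusted p 0.00263, limma), that of Ccl24 1.57 in place of 1.94 (adjusted p 0.00491), and that of Mmp12 2.50 in place of 2.45 (adjusted p 0.000169). Macrophage markers summed to 2880 to 2970 TPM in EgfrKO and 369 to 1820 TPM in Smad4KO libraries, and their part in these increases was not tested.

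**Figure D2:**
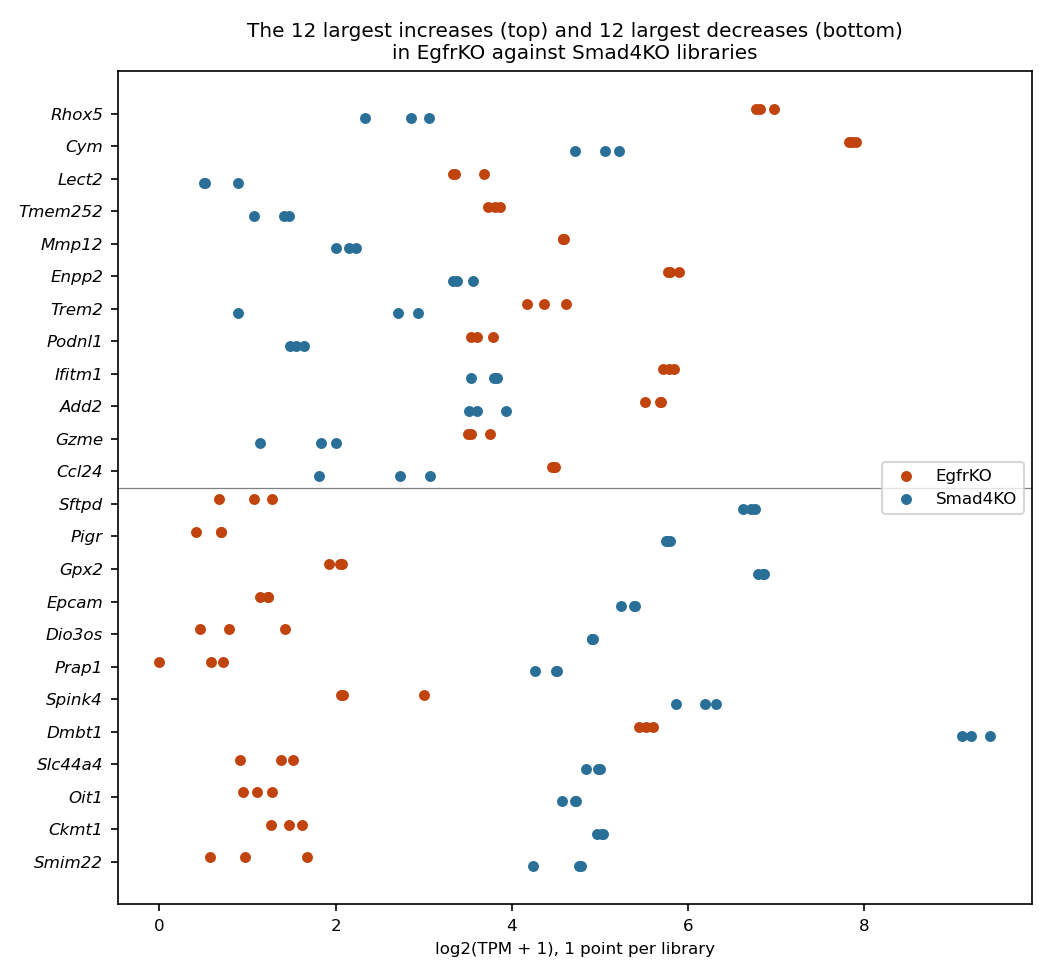
log2(TPM + 1) in each library of the 12 genes with the largest increases (upper rows) and the 12 with the largest decreases (lower rows) among called genes whose groups do not overlap. Points are libraries, coloured by genotype. Rhox5 heads the increases, and Sftpd, Pigr, Gpx2 and Epcam head the decreases.

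Among the ERBB receptors and ligands, 6 of 14 tested members rose and 4, Egfr included, fell in EgfrKO relative to Smad4KO cells. Their called share was 71.4%, against 33.2% over all genes. The median log2 fold change was 0.02, against 0.04 over all genes tested. Ligands made up most of the increases. The decreases were Egfr, the gene targeted in EgfrKO cells, the receptor Erbb3, the regulator Lrig1 and the ligand Nrg4. Erbb3, the kinase-impaired receptor for neuregulins, at 10:128567523-128589635, had 9.37, 9.45 and 8.71 TPM in EgfrKO against 31.2, 36.6 and 28.9 TPM in Smad4KO cells. Its EgfrKO mean of 9.17 ± 0.406 TPM and WT mean of 13.1 ± 2.08 TPM both lay below every Smad4KO library (SD, n = 3; log2 fold change of EgfrKO over Smad4KO -1.70 ± 0.14, adjusted p 3.41e-06, limma). Lrig1, an inhibitor of ERBB receptors, fell by 0.42 (adjusted p 0.000418). Erbb2, the partner receptor with no known ligand, was not called, with 45.5, 46.3 and 43.3 TPM in EgfrKO against 46.9, 48.9 and 46.8 TPM in Smad4KO cells.

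Nrg1, a ligand of ERBB3, had 3.50, 4.23 and 3.74 TPM in EgfrKO against 1.65, 1.19 and 1.78 TPM in Smad4KO cells (log2 fold change 0.93 ± 0.15, adjusted p 0.000829, limma). The EGFR ligands Btc, Tgfa and Hbegf rose by 0.35, 0.30 and 0.27 (adjusted p 0.00210, 0.00696 and 0.00787), the last of them with 139, 138 and 133 TPM in EgfrKO against 113, 116 and 111 TPM in Smad4KO cells. Nrg2, at 1.18 TPM or less in all 6 libraries, rose by 0.69 (adjusted p 0.00735), and Errfi1, a feedback inhibitor of EGFR on chromosome 4, by 0.21 (adjusted p 0.00696, and 0.196 with each chromosome centred). Areg, another EGFR ligand, had 26.1, 29.0 and 26.1 TPM in EgfrKO against 25.5, 29.9 and 25.1 TPM in Smad4KO cells and was not called, nor were Ereg and the receptor regulator Lrig3. The call of Nrg4, with 3.69 to 4.88 TPM in EgfrKO against 5.99 to 6.52 TPM in Smad4KO cells, had an adjusted p of 0.0379 that lay between 0.0666 and 0.122 on leaving out EgfrKO replicate 1 or 2 or any Smad4KO replicate. Erbb4, Egf and Epgn were too low to be tested, at 0.657 TPM or less.

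Of 27 genes known as outputs or feedback inhibitors of ERK, 11 were higher and 2 lower in EgfrKO than in Smad4KO cells, with a median log2 fold change of 0.08. The called share was 48.1%, against 33.2% over all genes. Il11, a cytokine of the IL-6 family at 7:4772373-4782907, had 6.60, 5.54 and 5.82 TPM in EgfrKO against 0.896, 1.37 and 1.15 TPM in Smad4KO cells. The groups were far apart, with a 5.26-fold difference of means (log2 fold change 1.71 ± 0.15, adjusted p 8.21e-06, limma), and the WT mean was 4.34 ± 0.961 TPM (SD, n = 3). Etv4, an ETS transcription factor, had 98.4, 96.6 and 87.4 TPM in EgfrKO against 53.8, 55.5 and 55.3 TPM in Smad4KO cells (0.77 ± 0.06, adjusted p 1.54e-06). Fosl1, an AP-1 subunit, rose by 0.75 (adjusted p 0.000108) and Epha2, an ephrin receptor, by 0.42 (adjusted p 0.000209). Etv1, an ETS factor related to Etv4, moved the other way, with 2.56, 2.86 and 3.72 TPM in EgfrKO against 5.80, 6.20 and 5.68 TPM in Smad4KO cells (-0.78 ± 0.11, adjusted p 0.000228). With median-of-ratios scaling 4 in place of 2 members were lower, with the 6 libraries fitted alone 5, and with no filter or without EgfrKO replicate 1, EgfrKO replicate 2 or Smad4KO replicate 1 only 1.

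Among TGF-beta ligands, receptors and SMADs, 13 of 33 tested members were higher in EgfrKO than in Smad4KO cells, Smad4 included, and 3 were lower (median log2 fold change 0.15). Together these were 48.5% of the tested members, against 33.2% called over all genes. The ligand Tgfb1 had 122, 119 and 118 TPM in EgfrKO against 81.4, 85.1 and 88.5 TPM in Smad4KO cells (0.49 ± 0.05, adjusted p 3.73e-05, limma). The signalling receptor Tgfbr2 went the other way, with 23.7, 23.3 and 24.7 TPM in EgfrKO against 34.1, 36.8 and 32.7 TPM in Smad4KO cells (-0.51 ± 0.08, adjusted p 0.000742). In both genes the groups did not overlap. The activin receptor Acvr1b fell by 0.36 (adjusted p 0.00404). Among inhibitors, Smad7, which SMAD4 is known to induce, rose by 0.41 (adjusted p 0.000756), and Fstl3, which binds activin, by 0.86 (adjusted p 2.04e-05). Ltbp1, Ltbp2 and Ltbp3, which hold latent TGF-beta in the matrix, rose by 0.42, 0.59 and 0.29 (adjusted p 0.00252, 0.00585 and 0.00561). Inhbb and Gdf11, ligands at 1.66 TPM or less in these libraries, rose by 0.58 and 0.74 (adjusted p 0.00508 and 0.00224). Smad3, the receptor-activated partner of SMAD4, was not called, with 72.2, 68.1 and 67.0 TPM in EgfrKO against 68.4, 77.7 and 68.0 TPM in Smad4KO cells. With median-of-ratios scaling 8 in place of 3 members were lower, and with quantile normalization 5. The calls of Smad2, Smad6 and Tgfbr1 were each lost on leaving out at least 4 of the 6 libraries in turn.

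Of 28 tested genes that TGF-beta is known to induce, 11 were higher and 3 lower in EgfrKO than in Smad4KO cells (median log2 fold change 0.17). That called share was 50%, against 33.2% over all genes. Over the list, TPM summed to 2220 to 2390 in EgfrKO and to 2310 to 2540 in Smad4KO libraries. Tgfbi, a secreted matrix protein at 13:56609586-56639359, had 39.7, 36.8 and 36.3 TPM in EgfrKO against 10.9, 6.59 and 12.9 TPM in Smad4KO cells. The EgfrKO mean was 3.71 times the Smad4KO mean (log2 fold change 1.84 ± 0.19, adjusted p 2.35e-05, limma), and WT cells averaged 35 ± 3.81 TPM (SD, n = 3). Itga5, the fibronectin receptor subunit, had 57.8, 56.6 and 52.0 TPM in EgfrKO against 28.2, 28.4 and 25.5 TPM in Smad4KO cells (0.99 ± 0.06, adjusted p 5.20e-07). Timp1, an inhibitor of matrix proteases, rose by 0.60 (adjusted p 8.35e-05) and Angptl4, a lipase inhibitor, by 0.57 (adjusted p 0.000707). Against these, Tgm2, a matrix cross-linking enzyme, had 337, 316 and 307 TPM in EgfrKO against 432, 461 and 441 TPM in Smad4KO cells (-0.47 ± 0.08, adjusted p 0.000662). The integrin subunit Itgb5 fell by 0.32 (adjusted p 0.0126). Fn1, fibronectin, was lower in EgfrKO cells at an adjusted p of 0.0169, which became 0.0539 without EgfrKO replicate 3 and 0.0657 without Smad4KO replicate 2. Macrophages and fibroblasts are also known to express Tgfbi, and Smad4KO replicate 2, the library lowest in macrophage markers, had the lowest Tgfbi value.

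The Tgfbi promoter is shown because it is that of the member with the largest change. It is the RefSeq GRCm38.p6 plus-strand sequence 13:56609336-56609635, from 250 bases before to 50 after the start, and it holds neither CAGACA nor the AP-1 letters TGANTCA on either strand. The shorter SMAD-binding letters CAGAC, counted on both strands after the values were seen, are there 2 times, and 48% of the promoters of tested genes and 49.7% of all RefSeq promoters hold them.

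Tgfbi promoter: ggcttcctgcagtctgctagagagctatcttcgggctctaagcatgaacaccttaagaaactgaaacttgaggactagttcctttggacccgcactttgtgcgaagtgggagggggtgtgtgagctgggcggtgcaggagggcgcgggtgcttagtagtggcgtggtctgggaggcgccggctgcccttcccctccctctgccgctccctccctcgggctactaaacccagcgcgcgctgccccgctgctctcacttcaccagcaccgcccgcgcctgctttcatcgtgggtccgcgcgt

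CAGACA was found in 21.0% of 27025 RefSeq promoters and in 16.2% of the 10387 tested genes with a promoter in the table. It was found in 17.1% of the promoters of genes higher and 17.7% of those of genes lower in EgfrKO cells, and in 2 of the 11 TGF-beta target genes with one. The same windows held TGANTCA in 7.93% of all promoters, 5.62% of tested, 6.65% of higher and 7.03% of lower genes, and in 0 of the 11 TGF-beta target genes.

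In the BMP branch, which also signals through SMAD4, 1 of 13 tested members was higher and 5 were lower in EgfrKO than in Smad4KO cells. The called share was 46.2%, against 33.2% over all genes. The ligand Bmp4 had 15.3, 13.8 and 11.5 TPM in EgfrKO against 22, 25.7 and 24 TPM in Smad4KO cells (-0.78 ± 0.11, adjusted p 0.000313, limma). The receptor Bmpr1a fell by 0.47 (adjusted p 0.000696) and the ligand Bmp2 by 0.54 (adjusted p 0.00396). The member that rose was Bmp1, a protease that processes procollagen and, despite its name, is not a BMP ligand (0.53 ± 0.08, adjusted p 0.000318). Id1, a known BMP target, fell by 0.23 (adjusted p 0.0167), a call that did not hold under all alternatives, and without EgfrKO replicate 2 or 3 the list had 3 lower members in place of 5. Without EgfrKO replicate 3 or Smad4KO replicate 3 it had 2 higher members in place of 1.

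Genes of epithelial adhesion and junctions were lower in EgfrKO cells in 27 of 34 tested members and higher in 0 (limma, also 0 at an unadjusted p under 0.05), with a median log2 fold change of -0.82. Epcam, the epithelial cell adhesion molecule at 17:87635979-87651127, had 1.35, 1.36 and 1.21 TPM in EgfrKO against 40.7, 41.0 and 36.8 TPM in Smad4KO cells. It was close to 1 TPM in every EgfrKO library, 30.3-fold lower than in Smad4KO cells by means (log2 fold change -4.13 ± 0.12, adjusted p 4.76e-09, limma), and WT cells lay between, at 13.5 ± 1.84 TPM (SD, n = 3). Ocln, which encodes the tight junction protein occludin, had 3.04, 2.66 and 3.56 TPM in EgfrKO against 25.3, 28.7 and 24.2 TPM in Smad4KO cells (-2.73 ± 0.13, adjusted p 1.02e-07). Muc1, a cell-surface mucin, had 29.2, 30.6 and 28.4 TPM in EgfrKO against 196, 194 and 189 TPM in Smad4KO cells (-2.67 ± 0.14, adjusted p 1.63e-07). For Ocln and Muc1 the WT means, 3.22 ± 0.559 and 38.3 ± 7.69 TPM, were near the EgfrKO values and far from the Smad4KO values. Spint2, an inhibitor of epithelial serine proteases, fell by 0.78 (adjusted p 4.84e-07).

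Cdh1, which encodes E-cadherin, differed far less, with 278, 271 and 253 TPM in EgfrKO against 339, 379 and 336 TPM in Smad4KO cells (-0.39 ± 0.09, adjusted p 0.00656, limma). The 7 tested members that were not called, chosen here after their values were seen, were Ovol1, Evpl, Ppl, Cldn12, Tjp1, Esrp2 and Cldn6. Over the alternatives run, between 21 and 28 members were lower, and 1 was higher only on leaving out EgfrKO replicate 3.

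The Epcam promoter is shown as that of the junction gene with the largest difference. It is the plus-strand RefSeq GRCm38.p6 sequence 17:87635729-87636028 and holds neither CAGACA nor TGANTCA, but holds the shorter CAGAC 1 time. CAGACA was found in 4 and TGANTCA in 2 of the 19 junction genes with a promoter in the table.

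Epcam promoter: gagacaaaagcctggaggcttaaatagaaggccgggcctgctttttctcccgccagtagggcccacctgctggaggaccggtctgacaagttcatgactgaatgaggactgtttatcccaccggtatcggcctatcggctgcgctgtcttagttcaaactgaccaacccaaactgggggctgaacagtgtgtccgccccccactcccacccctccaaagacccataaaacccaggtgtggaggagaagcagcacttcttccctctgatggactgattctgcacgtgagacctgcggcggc

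Genes that mark gastric lineage and the classical subtype of pancreatic cancer were lower in EgfrKO cells in 24 of 41 tested members and higher in 1, with a median log2 fold change of -0.55 (-0.35 with the stricter filter on low values). Tff2, a trefoil peptide of gastric mucus at 17:31141062-31144282, had 220, 208 and 200 TPM in EgfrKO against 2350, 1942 and 2408 TPM in Smad4KO cells. The Smad4KO mean was 10.7 times the EgfrKO mean (log2 fold change -3.40 ± 0.19, adjusted p 2.93e-07, limma), and WT cells had 367 ± 102 TPM (SD, n = 3). Muc4, a membrane mucin, had 0.150, 0.0357 and 0.0697 TPM in EgfrKO against 5.87, 6.92 and 4.78 TPM in Smad4KO cells (-2.65 ± 0.14, adjusted p 1.46e-07). Slc44a4, a choline-family transporter, fell by 3.67 (adjusted p 9.47e-08). The list's lineage transcription factors moved less: Gata6 and Pdx1, chosen after their values were seen, were not called, with 53.3 to 53.6 and 56.7 to 58.1 TPM in EgfrKO against 51.7 to 59.6 and 52.0 to 54.2 TPM in Smad4KO cells. Sox9, the member that was higher, had an adjusted p of 0.0112, which was 0.304 with each chromosome centred.

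Of the 11 tested keratins, 4 were higher and 2 lower, a called share of 54.5% against 33.2% over all genes. All 4 higher ones lie on chromosome 11. Krt10, Krt19 and Krt20, chosen here after their values were seen, lie there too and were not called. Krt14, a basal keratin, had 114, 109 and 104 TPM in EgfrKO against 47.8, 52.5 and 52.2 TPM in Smad4KO cells (1.08 ± 0.06, adjusted p 2.93e-07, limma), and Krt23 rose by 1.16 (adjusted p 4.56e-07). Krt13 rose by 0.72 (adjusted p 0.00186), while the call of Krt16 was lost without Smad4KO replicate 1 (adjusted p 0.0533). The simple epithelial keratins Krt8 and Krt18 were lower in EgfrKO cells by 0.18 and 0.24. The call of Krt8 was lost under 12 alternatives, and that of Krt18 with a replicate block over the 6 libraries (adjusted p 0.0621), so that 0 to 2 keratins were lower. Krt5, Krt6a and Krt17, squamous keratins chosen here after their values were seen, stayed at 0.241 TPM or less in all 6 libraries. Of 13 tested squamous or basal-like genes 3 were higher and 2 lower, a called share of 38.5% against 33.2% over all genes. Hmga2, a chromatin protein, rose by 0.82 (adjusted p 1.16e-05) and Itga3, an integrin subunit, by 0.36 (adjusted p 0.000947). Lama3, a laminin chain, fell by 1.26 (adjusted p 1.39e-05).

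Mesenchymal genes were higher in EgfrKO than in Smad4KO cells in 20 of 33 tested members and lower in 1, with a median log2 fold change of 0.46. Cdh2, which encodes N-cadherin, had 74.2, 70.3 and 69.5 TPM in EgfrKO against 38.3, 43.6 and 36.4 TPM in Smad4KO cells, and 55.8 ± 0.679 TPM in WT (SD, n = 3; log2 fold change of EgfrKO over Smad4KO 0.84 ± 0.07, adjusted p 3.44e-06, limma). S100a4, a calcium-binding protein of motile cells, averaged highest of the named members: it had 1439, 1384 and 1339 TPM in EgfrKO against 819, 807 and 805 TPM in Smad4KO cells (0.78 ± 0.07, adjusted p 1.52e-05). Axl, a receptor tyrosine kinase, rose by 0.71 (adjusted p 1.86e-05). Transcription factors of the mesenchymal programme, chosen here after their values were seen, differed among themselves. Zeb2, Prrx1, Zeb1 and Twist2 rose by 0.67, 0.58, 0.43 and 0.42 (adjusted p 0.000532, 0.00234, 0.00378 and 0.0221, limma), while Snai1, Snai2 and Twist1 were not called and stayed at 1.95 TPM or less.

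Collagens were higher in 14 of 19 tested members and lower in 1 (median log2 fold change 0.80). Col5a1, a chain of fibrillar collagen, had 15.4, 14.6 and 13.8 TPM in EgfrKO against 4.24, 4.91 and 4.44 TPM in Smad4KO cells (1.5 ± 0.12, adjusted p 3.60e-06, limma), and 16 ± 1.49 TPM in WT (SD, n = 3). Col6a2 and Col6a1, chains of microfibrillar collagen that lie on chromosome 10, rose by 1.44 and 1.03 (adjusted p 4.46e-06 and 1.17e-05), and Col7a1, the anchoring fibril collagen, by 2.01 (adjusted p 2.18e-05). Col16a1 fell by 0.41 (adjusted p 0.00410). Matrix proteases and their inhibitors were higher in 14 and lower in 4 of 28. Mmp12, macrophage elastase, had 22.8, 22.9 and 23.1 TPM in EgfrKO against 3.02, 3.69 and 3.44 TPM in Smad4KO cells. The inhibitors Serpine2 and Timp2 rose by 1.30 and 0.48 (adjusted p 1.86e-05 and 3.03e-05), and the membrane protease Adam8 by 1.0 (adjusted p 7.20e-05). Mmp15, a membrane-anchored metalloprotease, fell by 1.60 (adjusted p 7.56e-07), and the secreted proteases Adamts1 and Adamts9 by 1.39 and 0.74 (adjusted p 1.86e-06 and 0.000137). Integrins and laminins divided, with 5 higher and 7 lower of 21. Of the laminins, Lama4 and Lamb1 rose by 0.72 and 0.45, and Lama3, Lamb2 and Lamc1 fell by 1.26, 0.86 and 0.52 (adjusted p 0.00107 or less for each).

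Fibroblast markers were also higher in EgfrKO cells, in 7 of 12 tested members (4 without EgfrKO replicate 1 or 2, 3 without Smad4KO replicate 1 or 3), and summed to 173, 166 and 164 TPM in EgfrKO against 74.1, 102 and 70.8 TPM in Smad4KO cells. That list shares Col1a1, Col1a2, Col3a1 and Col6a3 with the collagens and Acta2 with the mesenchymal genes. Its defining members Pdgfra and Fap stayed at 1.06 and 0.297 TPM or less in all 6 libraries, and its 2 most abundant, Col1a1 and Col1a2, had 43.0 to 48.0 and 30.9 to 31.4 TPM in EgfrKO against 16.1 to 24.2 and 13.1 to 19 TPM in Smad4KO cells. In bulk samples such as these, fewer cells of a type and less RNA per cell cannot be told apart. The part of fibroblasts in the mesenchymal and matrix differences was not tested.

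**Figure D3:**
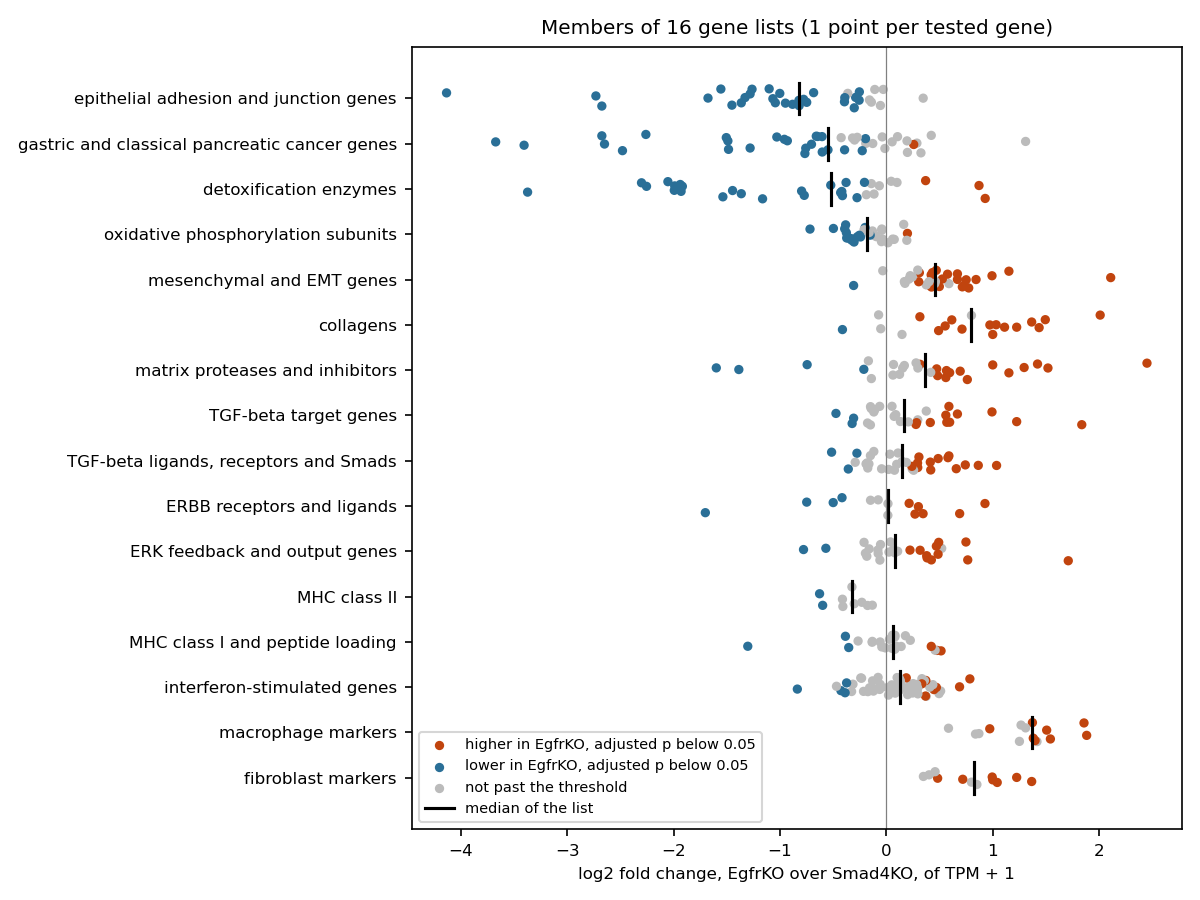
log2 fold change of EgfrKO over Smad4KO for each tested member of 16 gene lists, 1 row for each list. Points are genes, coloured by whether they were called higher, called lower or not called, and the bar is the list's median. Junction, gastric and detoxification genes lie mostly left of 0, collagens and mesenchymal genes mostly right, and interferon-stimulated genes around 0.

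Detoxification enzymes were lower in EgfrKO than in Smad4KO cells in 22 of 31 tested members and higher in 3, with a median log2 fold change of -0.52. Mgst1, a microsomal glutathione transferase at 6:138140527-138156755, had 93.6, 86.7 and 82.2 TPM in EgfrKO against 389, 350 and 359 TPM in Smad4KO cells. The EgfrKO mean was 4.18-fold lower (log2 fold change -2.05 ± 0.07, adjusted p 7.53e-09, limma), and WT cells had 172 ± 7.85 TPM (SD, n = 3). Cbr3, a carbonyl reductase, had 9.30, 9.19 and 9.50 TPM in EgfrKO against 49.8, 46.9 and 53.2 TPM in Smad4KO cells (-2.30 ± 0.07, adjusted p 7.53e-09). Aldh3a1, an aldehyde dehydrogenase, fell by 1.99 (adjusted p 1.63e-07), and Gstm1 by 1.93 (adjusted p 1.15e-07). Genes of the Gsta and Gstm families are near copies whose reads can be shared, so the split among them is uncertain. Those that rose were Cyp1b1, a cytochrome P450, by 0.93, Hmox1, the haem-degrading enzyme that macrophages also express, by 0.87, and Cyp4b1 by 0.37 (adjusted p 0.00158, 0.00222 and 0.00515). The count of lower members lay between 21 and 23 under every alternative run.

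Of the 25 detoxification genes with a promoter in the table, 6 (24%) held TGANTCA, against 5.62% of all tested genes with one. CAGACA was found in 7 of the 25. The letters TGACNNNGC, which contain the core of the antioxidant response element and were added after the values were seen, were found in 4 (16%), against 15% of tested genes. Of the 6 genes with TGANTCA, Gstp1, Mgst2, Aldh1a1 and Ugt1a6a were lower, Cyp4b1 was higher and Srxn1 was not called. These shares are descriptions of letters and not of binding. Only the TGAC form was searched, so TGAG forms, such as the TGAGTCAGC of Gstp1, were not counted. Which factors bind these letters was not tested. The promoters of Gstp1 (minus strand, 19:4037863-4038162), Mgst2 (plus strand, 3:51660929-51661228) and Aldh1a1 (plus strand, 19:20492333-20492632) are shown, chosen after the counts were seen, because in each of them the letters are TGAGTCA or TGACTCA, the usual AP-1 forms. Capitals mark those letters, which begin 74, 52 and 57 bases before the start.

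Gstp1 promoter: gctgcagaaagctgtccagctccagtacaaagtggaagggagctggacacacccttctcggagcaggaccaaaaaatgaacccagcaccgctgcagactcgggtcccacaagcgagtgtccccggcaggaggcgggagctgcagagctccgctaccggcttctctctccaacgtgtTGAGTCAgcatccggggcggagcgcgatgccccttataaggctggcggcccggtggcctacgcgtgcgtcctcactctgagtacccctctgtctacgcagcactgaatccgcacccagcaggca
Mgst2 promoter: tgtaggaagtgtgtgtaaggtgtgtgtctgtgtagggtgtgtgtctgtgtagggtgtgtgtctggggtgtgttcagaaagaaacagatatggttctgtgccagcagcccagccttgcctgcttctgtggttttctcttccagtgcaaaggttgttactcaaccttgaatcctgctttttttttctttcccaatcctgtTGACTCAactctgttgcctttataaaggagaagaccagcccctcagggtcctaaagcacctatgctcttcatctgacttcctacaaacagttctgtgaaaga
Aldh1a1 promoter: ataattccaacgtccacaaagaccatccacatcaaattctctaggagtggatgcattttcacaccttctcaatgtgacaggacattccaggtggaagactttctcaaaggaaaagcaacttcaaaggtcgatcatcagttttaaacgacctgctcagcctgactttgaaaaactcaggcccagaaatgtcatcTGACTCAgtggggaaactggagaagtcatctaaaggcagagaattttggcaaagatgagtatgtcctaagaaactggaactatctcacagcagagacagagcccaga

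Gstp1, a cytosolic glutathione transferase, had 723, 728 and 730 TPM in EgfrKO against 995, 947 and 997 TPM in Smad4KO cells (-0.43 ± 0.06, adjusted p 0.000304, limma). Mgst2 had 166, 188 and 158 TPM in EgfrKO against 234, 219 and 212 TPM in Smad4KO cells (-0.38 ± 0.09, adjusted p 0.00776). Aldh1a1, a retinaldehyde dehydrogenase, had 10.1, 10.8 and 11.9 TPM in EgfrKO against 31.9, 28.8 and 28.5 TPM in Smad4KO cells (-1.36 ± 0.18, adjusted p 0.000158). The 3 were chosen among called members, and their groups did not overlap, which also held for 47.9% of all genes tested.

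Subunits of oxidative phosphorylation were lower in EgfrKO cells in 15 of 30 and higher in 1, Sdhb, whose call was lost under several alternatives, with a median log2 fold change of -0.18. Sdha, of complex II, had 121, 116 and 112 TPM in EgfrKO against 190, 202 and 183 TPM in Smad4KO cells (-0.72 ± 0.06, adjusted p 3.51e-06, limma), and it lies on chromosome 13. Sdhd, Uqcrc1 and Atp5c1, of complexes II, III and V, fell by 0.50, 0.36 and 0.37 (adjusted p 0.000192, 0.000137 and 0.000263). The unfolded protein and integrated stress response genes divided, with 7 higher and 8 lower of 32 (5 lower without EgfrKO replicate 2 or Smad4KO replicate 2). Their called share was 46.9%, against 33.2% over all genes. The lower ones included the endoplasmic reticulum chaperone Hspa5, the transcription factor Xbp1 and the disulfide isomerase Pdia6, by 0.47, 0.59 and 0.39 (adjusted p 1.08e-05, 2.47e-05 and 3.97e-05). The higher ones included Shmt2 and Mthfd2 of one-carbon metabolism, Asns, which makes asparagine, and the amino acid transporter subunit Slc3a2, by 0.63, 0.51, 0.52 and 0.33 (adjusted p 9.61e-05, 0.00187, 0.00500 and 0.000250).

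Hypoxia and glycolysis genes also went both ways, with 7 higher and 6 lower of 36, a called share of 36.1% against 33.2% over all genes. Car9, a carbonic anhydrase induced by hypoxia, had 76.1, 74.5 and 68.8 TPM in EgfrKO against 231, 232 and 235 TPM in Smad4KO cells (-1.66 ± 0.15, adjusted p 9.14e-06, limma), and WT cells had 198 ± 12.2 TPM (SD, n = 3). Here the WT mean was nearer to Smad4KO than to EgfrKO cells. The hormone gene Stc2 and Egln3, an oxygen-sensing prolyl hydroxylase, fell by 1.89 and 0.88 (adjusted p 6.89e-06 and 0.00156). Pfkfb4, a regulator of glycolysis, the glycolytic enzyme Eno1 and the mTORC1 inhibitor Ddit4 rose by 0.90, 0.34 and 0.56 (adjusted p 4.29e-05, 0.000126 and 0.000805). With median-of-ratios scaling 3 members were higher in place of 7, and 4 without EgfrKO replicate 1, Smad4KO replicate 1 or Smad4KO replicate 3, with no filter, without the 20 most abundant genes or with chromosomes centred. Cholesterol and fatty acid synthesis had 4 higher and 6 lower of 34, a called share of 29.4% against 33.2% over all genes. The higher ones numbered 2 without EgfrKO replicate 1 or 3 or Smad4KO replicate 1 or 3, and the lower ones 3 without Smad4KO replicate 2. Among them Acly, which makes cytosolic acetyl-CoA, rose by 0.31, while Acss2, another acetyl-CoA enzyme, and the desaturase Scd2 fell by 0.61 and 0.34 (adjusted p 0.00331 or less for each).

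Cell cycle genes had 10 higher and 2 lower of 41, a called share of 29.3% that is under the background, with Ccnd1, cyclin D1, up by 0.47, Birc5, survivin, by 0.35 and Rrm2, a ribonucleotide reductase subunit, by 0.36 (adjusted p 0.00179, 0.000910 and 0.00380, limma). The higher members numbered 6 without EgfrKO replicate 2 and 6 with chromosomes centred. Immediate-early and dissociation stress genes, which cell sorting can also induce, had 11 higher and 3 lower of 30. Their called share was 46.7%, against 33.2% over all genes. Klf2, a Krüppel-like factor, had 65.3, 68.8 and 68.0 TPM in EgfrKO against 24.6, 25.4 and 28.1 TPM in Smad4KO cells (1.34 ± 0.15, adjusted p 3.86e-05), and Rhob, a small GTPase, rose by 0.68 (adjusted p 7.59e-05). Btg2, an antiproliferative early gene, fell by 1.12 (adjusted p 0.000443) and Fosl2, an AP-1 subunit, by 0.41 (adjusted p 0.00257). The Wnt list had 10 higher and 4 lower of 23 (6 higher with chromosomes centred), a called share of 60.9%. The ligand Wnt7b had 15.6, 14 and 15.6 TPM in EgfrKO against 4.16, 4.51 and 5.80 TPM in Smad4KO cells (1.47 ± 0.13, adjusted p 9.37e-06), with Wnt10a and the targets Lgr5 and Tcf7 up by 0.99, 0.98 and 0.78 (adjusted p 0.000532 or less for each). Of other members, chosen here after their values were seen, Rnf43 rose by 0.51 (adjusted p 0.0109) and Znrf3 was not called. The target Axin2, and Nkd1, Notum, Lef1 and Sp5, were too low to be tested, at 1.013 TPM or less in all 6 libraries. The receptors Lrp5, Lgr4 and Fzd5 fell by 0.51, 0.86 and 0.51 (adjusted p 0.00325 or less for each), while the receptors Fzd6 and Fzd2, chosen here after their values were seen, rose by 0.53 and 0.30 (adjusted p 0.00571 and 0.0180).

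Of 58 interferon-stimulated genes 8 were higher and 4 lower, a called share of 20.7% against 33.2% over all genes. The higher members numbered 18 with the 6 libraries fitted alone, 16 without the WT libraries, 5 without EgfrKO replicate 2 and 3 without EgfrKO replicate 1 or Smad4KO replicate 2. The interferon-gamma receptor genes Ifngr1 and Ifngr2 fell by 0.43 and 0.39 (adjusted p 0.000379 and 0.000480, limma), and Ifit2 rose by 0.69 (adjusted p 0.000910). MHC class I and peptide loading had 3 higher and 3 lower of 24, a called share of 25% against 33.2% over all genes. The peptide-loading chaperones Pdia3 and Calr fell by 0.38 and 0.35 (adjusted p 4.43e-05 and 0.000105). The 3 higher members, H2-T10, H2-T22 and H2-T24, are near copies of each other, and without EgfrKO replicate 1 or Smad4KO replicate 2 the list had 0 higher members, and without Smad4KO replicate 3 it had 1. H2-Q7, another gene with near copies, had 55.9, 54.2 and 54.6 TPM in EgfrKO against 145, 118 and 149 TPM in Smad4KO cells (-1.30 ± 0.32, adjusted p 0.00871). MHC class II had 2 lower of 9, a called share of 22.2% that is also under the 33.2% over all genes. They were Cd74 and Ciita, both lost on leaving out any 1 EgfrKO library or Smad4KO replicate 1 or 3.

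Of 25 cytokines and factors that act on myeloid cells, 6 were higher and 3 lower, a called share of 36% against 33.2% over all genes. Ccl20, the ligand of CCR6, had 3.16, 2.19 and 4.56 TPM in EgfrKO against 26.6, 19.3 and 26.7 TPM in Smad4KO cells (-2.57 ± 0.27, adjusted p 2.98e-05, limma). The neutrophil chemokine Cxcl5 had 53.4, 50.6 and 48.9 TPM in EgfrKO against 106, 102 and 97.9 TPM in Smad4KO cells (-0.99 ± 0.12, adjusted p 8.05e-05), and Cx3cl1, a membrane chemokine, fell by 0.49 (adjusted p 0.000226). Nos2, the inducible nitric oxide synthase, rose by 1.04 and Ptges, which makes prostaglandin E2, by 0.51 (adjusted p 3.14e-05 and 0.00120). The higher members numbered 3 in place of 6 without EgfrKO replicate 1 or 2, with no filter, with median-of-ratios scaling, with chromosomes centred, or with the 6 libraries fitted alone. Of 10 chemokines that attract T cells, 1 was higher and 1 lower, a called share of 20% against 33.2% over all genes. Ccl3 was higher by 1.39 (adjusted p 0.00536, and 0.0235 without Smad4KO replicate 2) and Cxcl16 lower by 0.40 (adjusted p 0.000638).

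Macrophage markers were higher in EgfrKO than in Smad4KO libraries in 8 of 15 tested members and lower in 0 (limma, 13 higher and 0 lower at an unadjusted p under 0.05), with a median log2 fold change of 1.37. Without Smad4KO replicate 2 that median was 0.65 and 5 members were higher, and without any 1 EgfrKO library 4 were. Apoe, an apolipoprotein abundant in macrophages, had 1105, 1094 and 1094 TPM in EgfrKO against 496, 110 and 502 TPM in Smad4KO cells (log2 fold change 1.86 ± 0.49, adjusted p 0.0124, limma, and 1.14 with an adjusted p of 0.0110 without Smad4KO replicate 2). Arg1, arginase 1, had 94.5, 87.1 and 84.1 TPM in EgfrKO against 30.4, 14.4 and 28.4 TPM in Smad4KO cells (1.88 ± 0.31, adjusted p 0.000708, and 1.56 with an adjusted p of 0.00211 without that library). Every EgfrKO value of both genes exceeded every Smad4KO value. Retnla, another of the abundant markers, had 392, 435 and 431 TPM in EgfrKO against 468, 57.5 and 470 TPM in Smad4KO cells and was not called: Smad4KO replicates 1 and 3 were above all EgfrKO libraries. Lyz2, lysozyme, was not called either, with 447, 440 and 413 TPM in EgfrKO against 276, 69.3 and 274 TPM in Smad4KO cells.

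General leukocyte markers were higher in 8 of 9 members, with 5 of them called without Smad4KO replicate 2 (median log2 fold change 1.12, and 0.59 without it). The dendritic cell marker Itgax, which macrophages also express, had 4.61, 4.88 and 4.17 TPM in EgfrKO against 1.28, 1.11 and 1.14 TPM in Smad4KO cells (1.35 ± 0.19, adjusted p 0.000236, limma). Xcr1 and Clec9a, which define one class of dendritic cell, stayed at 0.565 TPM or less in all 6 libraries. All 4 tested endothelial markers were higher, led by Cdh5, VE-cadherin, with 3.42, 3.37 and 3.99 TPM in EgfrKO against 0.655, 0.864 and 0.759 TPM in Smad4KO cells (1.38 ± 0.14, adjusted p 2.78e-05). With a minimum of 5 TPM only Cdh5 and Plvap were tested, and the call of Plvap was lost (adjusted p 0.0551, limma). Other alternatives lost that call too, among them quantile normalization (adjusted p 0.0857) and leaving out EgfrKO replicate 3 (adjusted p 0.143, limma). Over the alternatives run, between 1 and 4 endothelial markers were higher. Kdr, Tek, Vwf and Emcn, from the same list, were too low to be tested, at 0.844 TPM or less in all 6 libraries. Of 9 T and NK cell and 5 neutrophil markers 0 were called by limma, with 1 and 0 at an unadjusted p under 0.05, and 1 T and NK cell marker was called without EgfrKO replicate 1 or Smad4KO replicate 3. They summed to 14.2 to 18.2 and 16.2 to 20.5 TPM in EgfrKO against 11 to 16.9 and 15.6 to 19.4 TPM in Smad4KO cells. Of the acinar markers Cela1, an elastase, had 32.5, 35.2 and 32.9 TPM in EgfrKO against 79.4, 73.3 and 76.6 TPM in Smad4KO cells (-1.16 ± 0.08, adjusted p 1.46e-06), while Prss1 stayed at 0.569 TPM or less.

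**Figure D4:**
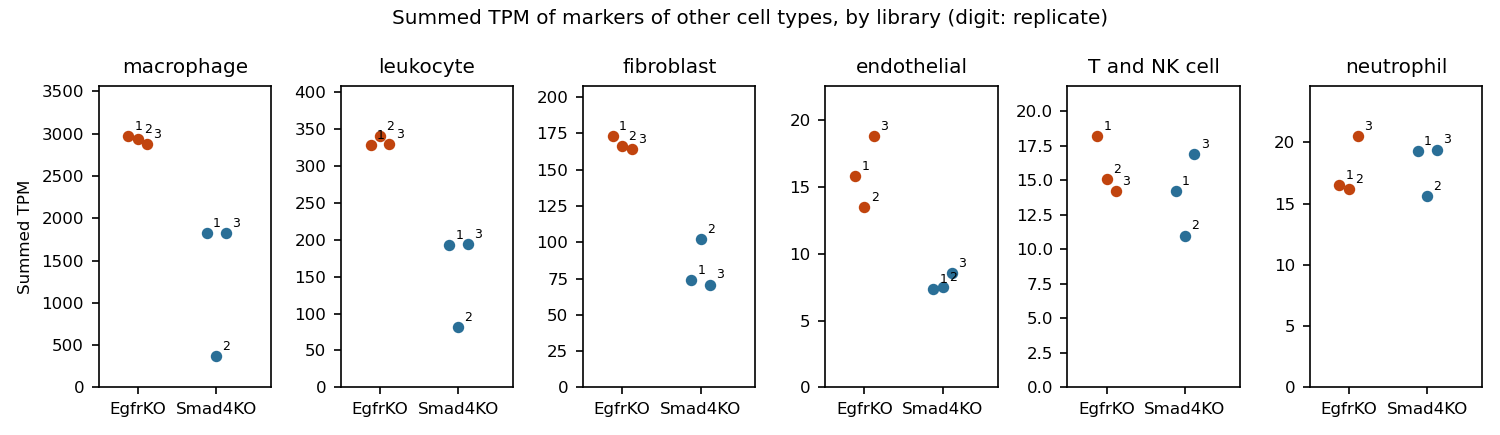
Summed TPM of the markers of 6 other cell types in each EgfrKO (left) and Smad4KO (right) library, with the digit giving the replicate and 1 linear axis from 0 for each panel. Macrophage and leukocyte sums are higher in EgfrKO libraries, with Smad4KO replicate 2 the lowest at 369 and 81.3 TPM, and fibroblast and endothelial sums do not overlap between groups.

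The difference between the knockouts was uneven over the genome. On chromosome 10, 47.2% of 634 tested genes were higher and 4.42% lower in EgfrKO cells, with a median log2 fold change of 0.26. On chromosome 13 the order turned, with 6.34% of 552 genes higher and 38.2% lower and a median of -0.20. Chromosomes 11 and 4 followed in the upward direction with medians of 0.17 and 0.16, and chromosome 12 in the downward direction with -0.12. For each library, deviations from the mean of the 12 libraries were taken and the library's median deviation over all tested genes was subtracted. On that scale the median of chromosome 10 genes was 0.09 in each EgfrKO library, against -0.12, -0.14 and -0.12 in Smad4KO libraries. In WT libraries it was -0.09 to -0.05. That of chromosome 13 was -0.18, -0.16 and -0.16 in EgfrKO, against 0.07, 0.11 and 0.05 in Smad4KO and 0.00 to 0.02 in WT libraries. These medians agreed closely between replicates, and the groups did not overlap on 16 of 20 chromosomes, with EgfrKO above on 8 and below on 8. Centring each library draws the directions towards balance, so the even split is not a result. Some of these differences were small, such as 0.02 on chromosomes 7 and 19.

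Among genes with a mean of at least 20 TPM, the median difference of chromosome 10 genes was 1.2-fold, with 87.5% of 271 genes above 0, and that of chromosome 13 genes was 0.82-fold, with 11.1% of 207 above 0. In windows of 50 neighbouring genes the median log2 fold change ran from -0.34, at 13:93145855-100552718, to 0.36, at 10:76595756-79995400. Ocln, at 13:100496504-100552718, lies in the lowest window, and its own difference of -2.73 is far past that window's median. Copy number was not measured, and its part in these differences was not tested. With each chromosome centred before the fit, an alternative chosen after seeing the data, 3962 genes were called, 1879 higher and 2083 lower, and 3235 of them were among the 4531. By level, the share of genes higher in EgfrKO cells was 15.8% in the lowest of 5 equal groups of genes ranked by mean TPM and 24.2% in the highest, and the share lower was 10.3% and 18.3%.

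**Figure D5:**
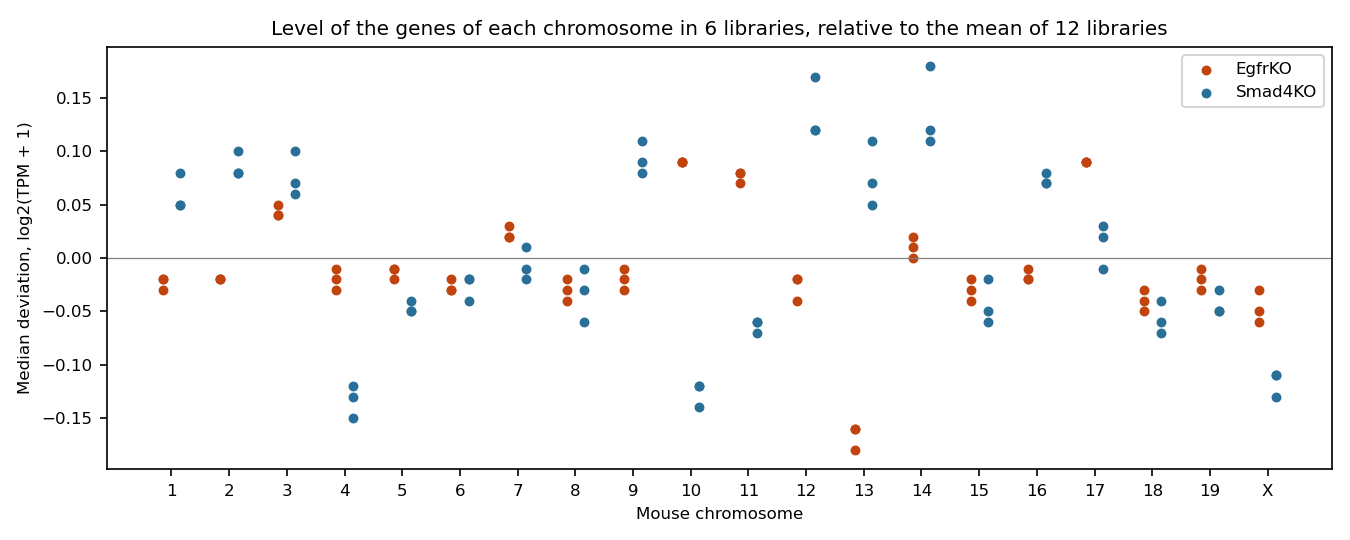
Median deviation from the mean of the 12 libraries, in log2(TPM + 1), of the tested genes of each chromosome in every EgfrKO and Smad4KO library. Each library's median deviation over all tested genes was subtracted first. Points are libraries, coloured by genotype. EgfrKO libraries sit above Smad4KO libraries on chromosomes 4, 10 and 11 and below them on chromosomes 12 and 13, with replicates close together.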

How the data were processed

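RNA of sorted mouse tumour cells was sequenced. The authors' deposited file gives TPM for each gene, made with Salmon and the mm10 build per the submitters' processing notes. Not given in the sources used here are the Salmon version, the annotation and how transcripts were summed. Read depth cannot be had from TPM, so it is unknown and no counting intervals are printed. Columns were matched to samples, and samples to genotypes, by label.

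Genes reaching 1 TPM in 3 or more of the 12 libraries entered a limma fit (version 3.58.1, R 4.3.3) of log2(TPM + 1). The fit had 4 genotype means over all 12 libraries, so that groups of 3 share 1 estimate of the spread, with eBayes and a trend. The contrast was EgfrKO minus Smad4KO, two-sided, adjusted by Benjamini and Hochberg's method over all 13662 genes, with a threshold of 0.05. Log2 fold changes, with standard errors (SE), are of TPM + 1, so they understate changes at low levels; folds of means are on the TPM scale. "Rose", "fell", "higher" and "lower" by a value mean a called log2 fold change of EgfrKO over Smad4KO.

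The members, gene lists and tests were chosen with earlier results of these data known. Lists were described by counts and medians, with no list test. Named genes were the targeted genes, the 12 largest called changes each way with non-overlapping groups, a mean of at least 10 TPM in the higher group and a regular gene symbol, up to 4 called members per list and direction by adjusted p, all ERBB and TGF-beta pathway members, and the 2 most abundant or the absent defining cell markers. 1 gene that this rule covers is left out and not reported here. Positions and promoters came from RefSeq GRCm38.p6, the assembly of mm10, which gave a position for 13629 (99.8%) of tested genes. The test script was tested on simulated data. Python 3.11.15, pandas 2.3.3 and scipy 1.17.1 did the rest.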

Additional observations from a re-analysis of the deposited data

How the results depend on the processing

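Pseudocounts of 0.1 and 0.5 called 4514 and 4532 genes, in place of 4531, and no filter and a minimum of 5 TPM called 4432 and 3935. Median-of-ratios scaling called 4927, quantile normalization 4985, and leaving out the 20 most abundant genes or ribosomal protein genes 4618 and 4616. No trend and a robust spread called 4414 and 4521. The 6 libraries alone called 4382, and the fits without the WT or the Klf5KO libraries 4308 and 4608. Leaving out each replicate in turn called 3469 to 4033 genes, 1836 to 2497 of them higher and 1536 to 1888 lower. All of these stayed within 1.5 times the reported count, as did chromosome centring (3962), which was chosen after seeing the data. The replicate numbers did not pair the samples: same-numbered deviations correlated at -0.04, -0.06 and 0.03, and only replicate 3 correlated best with its own number. With the replicate number as a block, 4392 genes were called over 12 libraries and 4011 over 6. Egfr and Smad4 kept their calls under each alternative run, with log2 fold changes of -0.92 to -0.59 and 0.99 to 1.10. Of 206 called genes that the naming rule covers, 173 kept their call under every alternative that tested them, 33 lost it under at least 1, and 0 changed sign. Genes that an alternative left out, such as Nrg2 with a minimum of 5 TPM, were not judged by it. TPM holds no depth, so precision at low levels rests on 3 libraries a group.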
